A study of Mus musculus with 9 samples.

Results

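The genes examined were 37 that encode glucose and lactate transporters, the enzymes from hexokinase to pyruvate kinase, lactate dehydrogenase, the pyruvate carrier and pyruvate dehydrogenase with its kinases, and the pentose phosphate pathway. Members were the rows of the count table whose gene symbol was on this list. All 37 symbols were found, each in 1 row of the 46078 genes, and all 37 passed the filter on low counts that left 15401 genes for testing. Transcript 3′ ends were sequenced in 9 mouse libraries. The 6 called lymphoma here were MYCN-induced T cell lymphoma cells from the thymus, numbered 34, 53, 56, 70, 72 and 86. The 3 called CD4 were CD4+ T cells from the spleen, numbered 1, 2 and 3, which served as controls. Both groups were of the C57BL/6J strain, and no treatment is named for either. The promoter that drove MYCN, the animals' ages and whether the lymphomas arose independently are not given in the sources used here. Because nothing says how the libraries relate to animals, p-values measure the spread between these libraries.

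Glycolysis splits glucose into pyruvate in the cytosol and yields ATP and NADH. Pyruvate is then either reduced to lactate and exported, or carried into mitochondria and turned into acetyl-CoA by the pyruvate dehydrogenase complex. The pentose phosphate pathway branches off at glucose-6-phosphate and supplies NADPH and the ribose of nucleotides. Resting T cells are known to burn pyruvate in mitochondria, while activated and malignant T cells take up more glucose and release lactate. MYC family transcription factors and the hypoxia-inducible factor HIF1 are both known to bind and activate many of these genes.

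Most of the 37 genes were higher in lymphoma. In the quasi-likelihood test of edgeR, adjusted by Benjamini-Hochberg over the 15401 genes, 26 rose, 2 fell (Hk1 and Pdk1) and 9 did not pass an adjusted p of 0.05. Over all genes tested, 46.6% passed in either direction, 24.7% as higher and 21.9% as lower, against 70.3% and 5.41% of the members. At least 2-fold changes were called in 21 members as higher and in 1 (Pdk1) as lower, where the rates over all genes were 17.9% and 17.2%. In 25 members every lymphoma lay above every CD4 library and in 2 every lymphoma lay below, compared with 22.6% and 22.3% of all genes tested. The median log2 fold change (lymphoma over CD4) was 1.47 over the members and 0.04 over all genes tested. Without lymphoma 53, which stood apart from the other lymphomas for several of these genes, the same 28 members kept their calls and none was added. With lymphomas 34, 70 and 72 averaged into 1 library, because an earlier analysis of these data found the same most used T cell receptor segment in them, 27 of the 28 calls were kept and that of Hk1 was lost.

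**Figure D1:**
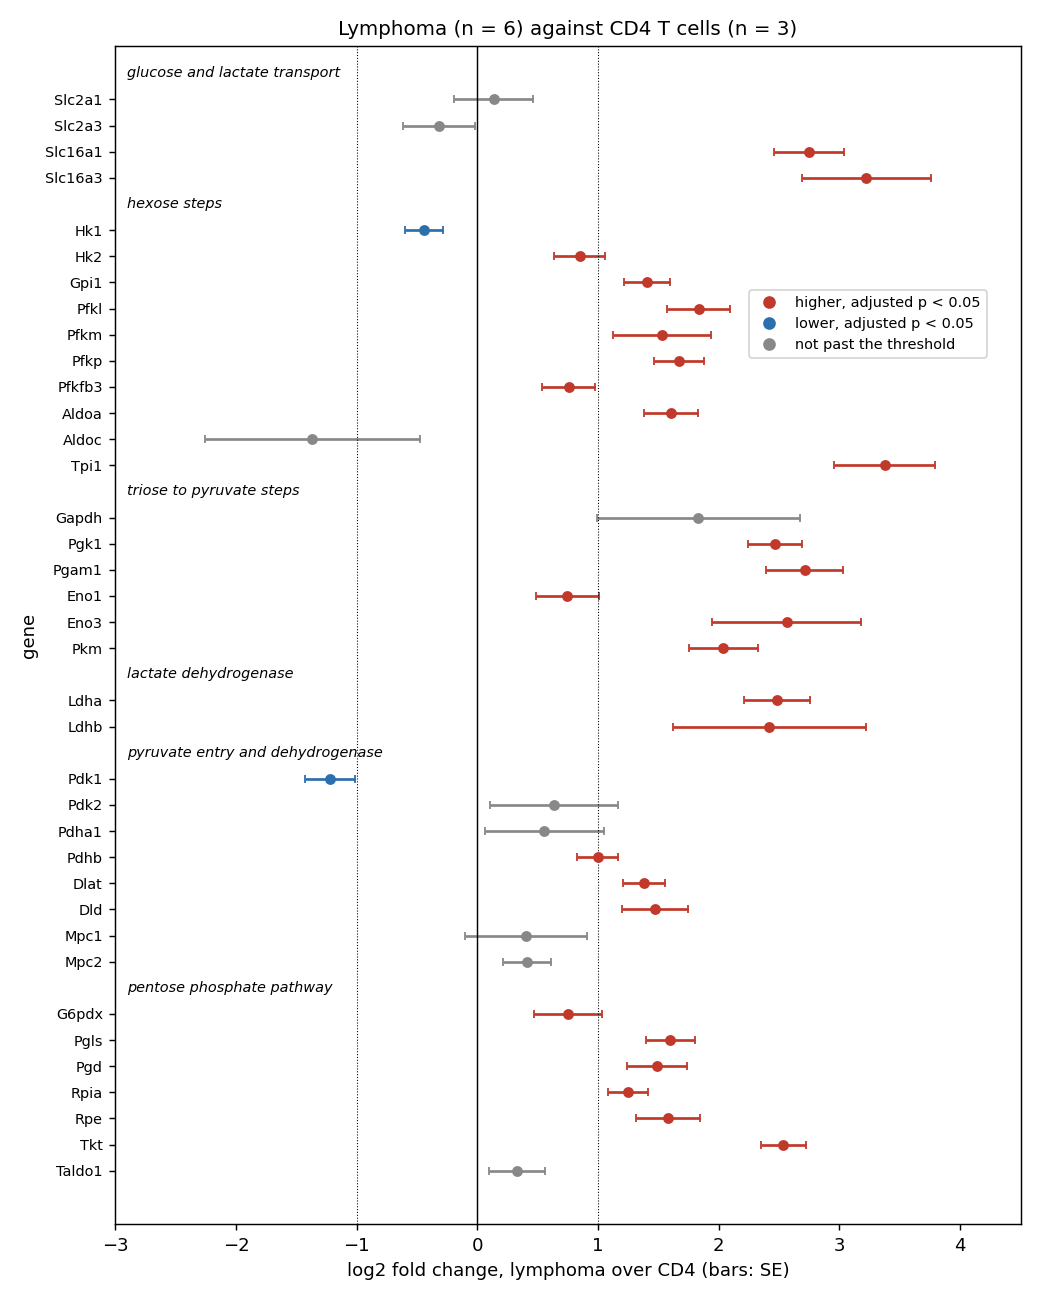
Log2 fold change of each of the 37 genes, lymphoma (n = 6) over CD4 (n = 3), ordered by pathway step, with bars for the standard error and dotted lines at 2-fold. Red points (26 genes) rose, blue points (Hk1 and Pdk1) fell, and grey points did not pass the threshold; the largest value is that of Tpi1, at 3.38.

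Summed over the 37 genes, the level was 1898, 1741 and 1814 counts per 1000000 gene counts, TMM-scaled (CPM), in CD4 1, 2 and 3, and ran from 3938 CPM in lymphoma 70 to 6616 CPM in lymphoma 53. The CD4 mean was 1818 ± 78.2 CPM (SD, n = 3) and the lymphoma mean 5035 ± 992 CPM (SD, n = 6), a ratio of 2.77, given as a description with no test. By step, the ratio of the summed means was 5.57 for lactate dehydrogenase, 4.17 from Gapdh to Pkm, 2.74 for the pentose phosphate genes, 2.68 for the hexose steps, 2.56 for the transporters and 1.10 for pyruvate entry and dehydrogenase. The last sum includes Pdk1, which fell, while 3 other genes of that step rose. The mean of Pdk1 was 227 of 434 CPM in CD4 and 97.3 of 477 CPM in lymphoma.

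Several facts of the libraries bear on these values. Reads counted in genes ranged from 11170704 to 15769679 in lymphoma and from 8099960 to 10808828 in CD4, and a count of 0 allowed at most 0.269 CPM in any lymphoma and 0.370 CPM in any CD4 library, by counting error alone. T cell markers were present in both groups: of 14 listed, 0 were higher and 3 lower in lymphoma, and none was at 0 throughout a group. The 3 lower were Cd4, Cd2 and Cd28, and the other 11 did not pass. Cd4 had 199 to 263 CPM in CD4 and 6.04 to 71.9 CPM in lymphoma (log2 fold change -2.76, edgeR adjusted p 0.0111). Cd8a, which did not pass, had 25.6 to 31.8 CPM in CD4 and 0.0645 to 29.4 CPM in lymphoma (median 1.05). The 15 B cell markers were all lower in lymphoma, with a summed level of 2819 to 3459 CPM in CD4 and 259 to 425 CPM in lymphoma. Myeloid markers summed to 1017 to 1221 CPM in CD4 and 80.0 to 2311 CPM in lymphoma (highest in lymphoma 56), erythroid markers to 101 to 360 CPM and 24.7 to 904 CPM (highest in lymphoma 86), and stromal markers to 216 to 235 CPM and 97.8 to 181 CPM, in the same order. Of 15 myeloid markers 6 were lower (40%) and 0 higher. Of 9 erythroid markers tested 1 was higher (11.1%), and of 6 stromal markers tested 2 were higher (33.3%) and 1 lower (16.7%). Over all genes tested 24.7% were higher and 21.9% lower, and of the T cell markers 21.4% were lower. Cdh5 and Lum were at 0 in all lymphomas, and Dcn, Krt5, Krt8, Foxn1 and Lum in all CD4 libraries. The part of other cell types in the results below was not tested. Fewer cells of a type and less RNA per cell cannot be told apart in bulk samples. Xist stood at 493 to 582 CPM in CD4 and at 4.66 to 11.3 CPM in lymphoma, and Y-linked Ddx3y at 0.191 to 0.734 CPM and 119 to 178 CPM, so sex, tissue and group cannot be told apart; Pgk1, Pdha1 and G6pdx lie on the X chromosome.

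Of the 4 transporter genes, those for lactate rose, and those for glucose did not pass the test. Slc2a1 (GLUT1) and Slc2a3 (GLUT3) are the glucose carriers of T cells, and Slc16a1 and Slc16a3 carry lactate. Slc2a1 had 23.9, 13.9 and 32.2 CPM in CD4 1, 2 and 3, and from 12.7 to 34.4 CPM in lymphoma with a median of 26.4. The groups overlapped widely, and the log2 fold change of Slc2a1 was 0.14 (SE 0.326, edgeR adjusted p 0.764). Leaving out CD4 2 turned it to -0.12. For Slc2a3 the CD4 libraries had 50.6, 34.9 and 43.0 CPM, and the lymphomas 13.9 to 45.4 CPM (median 36.8), and the log2 fold change was -0.32 (SE 0.298, edgeR adjusted p 0.408). Lymphoma 53 was the lowest library for both transporters.

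Slc16a1 (MCT1, chromosome 3, 104638668 to 104658462, plus strand, GRCm38) carries lactate and pyruvate across the membrane in either direction. Its level was 13.6, 23.0 and 25.6 CPM in CD4 and 105 to 212 CPM in lymphoma (median 129). No lymphoma came near the CD4 range, and the rise was 2.75 on the log2 scale (SE 0.291, edgeR adjusted p 1.78e-05). Slc16a3 (MCT4), the lactate exporter of strongly glycolytic cells, had 3.63, 2.64 and 3.85 CPM in CD4 and 10.5 to 63.9 CPM in lymphoma (median 27.9). It rose by 3.22 (SE 0.536, edgeR adjusted p 0.000499), with lymphoma 86 lowest and lymphoma 53 highest of the 6.

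In the hexose steps, from hexokinase to triosephosphate isomerase, 8 of 10 genes rose, Hk1 fell and Aldoc did not pass. That is 80% higher and 10% lower, against 24.7% and 21.9% of all genes tested. Hexokinase traps glucose in the cell by phosphorylation, and Hk2 is the form that growth signals are known to induce. Hk2 (chromosome 6, 82725025 to 82774454, minus strand) had 16.8, 23.2 and 28.8 CPM in CD4 and 35.2 to 51.2 CPM in lymphoma (median 40.6), a rise of 0.85 (SE 0.211, edgeR adjusted p 0.00611). Hk1, the housekeeping form, had 80.9, 60.5 and 64.1 CPM in CD4 and 46.8 to 56.7 CPM in lymphoma (median 48.9). Every lymphoma was below every CD4 library, but the change of -0.44 (SE 0.154, edgeR adjusted p 0.0341) was small. Hk1 lost its call in 9 of 18 alternatives, which include leaving out CD4 1, CD4 3 or lymphoma 34, 56, 70 or 86, and without CD4 1 its edgeR adjusted p was 0.197 (log2 fold change -0.29).

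Gpi1, which interconverts glucose and fructose phosphates, stood at 94.1, 77.4 and 105 CPM in CD4 and at 178 to 291 CPM in lymphoma (median 243), and rose by 1.40 (SE 0.189, edgeR adjusted p 0.000101). Phosphofructokinase makes the committed step, and all 3 of its subunit genes rose. Pfkp, the platelet form, had 71.8, 76.6 and 71.2 CPM in CD4 and 166 to 316 CPM in lymphoma (median 229), a log2 rise of 1.67 (SE 0.210, edgeR adjusted p 6.15e-05). Pfkl, the liver form, went from 15.2, 17.2 and 13.2 CPM to between 39.6 and 71.96 CPM (median 51.4), a change of 1.83 (SE 0.258). Pfkm, the muscle form, had 5.72, 4.20 and 4.31 CPM in CD4 and 6.96 to 25.2 CPM in lymphoma (median 13.0), and its change was 1.53 (SE 0.406). Pfkfb3, whose product makes an allosteric activator of phosphofructokinase, rose less, by 0.76 (SE 0.220, edgeR adjusted p 0.0141), from 37.9, 29.8 and 40.0 CPM to between 49.4 and 90.1 CPM (median 56.4). Its call was lost at an adjusted p of 0.01 and without CD4 2. The 3′ end of Pfkp overlaps exons of Pitrm1 on the other strand, and Pitrm1 itself rose by 0.81 (SE 0.286); since the strand setting is not given in the sources used here, reads of the overlap cannot be assigned.

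Aldolase splits the hexose into trioses, and Aldoa is the form of most tissues. Aldoa had 139, 132 and 146 CPM in CD4 and 266 to 567 CPM in lymphoma (median 425), a rise of 1.603 (SE 0.227, edgeR adjusted p 0.000143). Aldoc, the brain form, was low, with 42, 16 and 64 counts in CD4 and 0 to 36 counts in lymphoma. Its level was 4.01, 1.92 and 5.87 CPM in CD4 and 0 to 2.74 CPM in lymphoma (median 1.61), and it did not pass (edgeR adjusted p 0.231). Lymphoma 72 had 0 counts of Aldoc, which allowed up to 0.200 CPM. Tpi1 (chromosome 6, 124810586 to 124814296, minus strand), which interconverts the trioses, had the largest fold change of the 37. It stood at 20.9, 9.96 and 7.34 CPM in CD4 and at 86.7 to 205 CPM in lymphoma (median 121), 10.4-fold higher (log2 3.38, SE 0.417, edgeR adjusted p 6.33e-05). Exons of Spsb2 overlap the Tpi1 end on the other strand, and Spsb2 had 1.08 to 4.40 CPM in CD4 and 1.37 to 2.26 CPM in lymphoma (log2 fold change -0.71, edgeR adjusted p 0.312).

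From glyceraldehyde phosphate to pyruvate, 5 of 6 genes rose (83.3%, against 24.7% of all genes tested) and Gapdh did not pass. Pgk1, which makes ATP, had 38.1, 27.6 and 34.9 CPM in CD4 and 142 to 236 CPM in lymphoma (median 185), a rise of 2.47 (SE 0.225, edgeR adjusted p 6.16e-06). Pgam1, the mutase that follows, had 34.8, 25.8 and 34.04 CPM in CD4 and 119.7 to 302 CPM in lymphoma (median 217), and rose by 2.71 (SE 0.320, edgeR adjusted p 3.88e-05). Pkm, whose pyruvate kinase ends glycolysis, stood at 183, 164 and 149.6 CPM in CD4 and at 389 to 953 CPM in lymphoma (median 677), a rise of 2.04 (SE 0.285, edgeR adjusted p 0.000132). All 6 lymphomas exceeded all 3 CD4 libraries for these 3 genes. The M1 and M2 splice forms of Pkm cannot be separated in counts per gene.

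The enolase genes behaved unevenly. Eno3, known as the muscle form, had 26.1, 22.9 and 28.8 CPM in CD4 and 52.2 to 411 CPM in lymphoma (median 116), with lymphoma 53 far above the rest, which ended at 139 CPM. Its rise was 2.56 (SE 0.620, edgeR adjusted p 0.00677), and 1.97 (SE 0.295, edgeR adjusted p 0.000190) in the 5 lymphomas left without lymphoma 53. Eno1, the general form, rose by 0.74 (SE 0.260, edgeR adjusted p 0.0343), from 61.6, 87.4 and 37.8 CPM to between 78.9 and 137 CPM (median 98.5), and the groups overlapped through CD4 2. Eno1 lost its call in 5 alternatives; its log2 fold change was 0.75, 0.49 and 0.72 without CD4 1, CD4 3 and lymphoma 56, with edgeR adjusted p 0.0792, 0.139 and 0.0548.

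Eno1 and Gapdh are the members whose 3′ ends were the least distinct. Of the 451 stretches of 50 bases in the last 500 bases of the longest coding transcript, 90.5% for Gapdh and 75.2% for Eno1 also occur in transcripts of other genes, 138 for Gapdh (135 of them pseudogenes) and 5 for Eno1. Reads that aligned to several places are tallied apart and are in no gene's count. Gapdh, a glycolytic enzyme often used as an abundant reference transcript, had 1.24, 0 and 2.02 CPM in CD4 and 2.10 to 5.75 CPM in lymphoma (median 4.10), and its log2 fold change was 1.83 (SE 0.839, edgeR adjusted p 0.0937). How far reads placed nowhere or elsewhere set these low levels was not tested. Shared stretches also made up 26.4% for Mpc1, 24.4% for Ldhb, 8.87% for Pdhb and 7.32% for Pgk1. Of the 24 members with no shared stretch and no exon of another gene over their end, 16 rose and 2 fell, with a median log2 fold change of 1.43. Over all genes tested 24.7% rose and 21.9% fell.

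**Figure D2:**
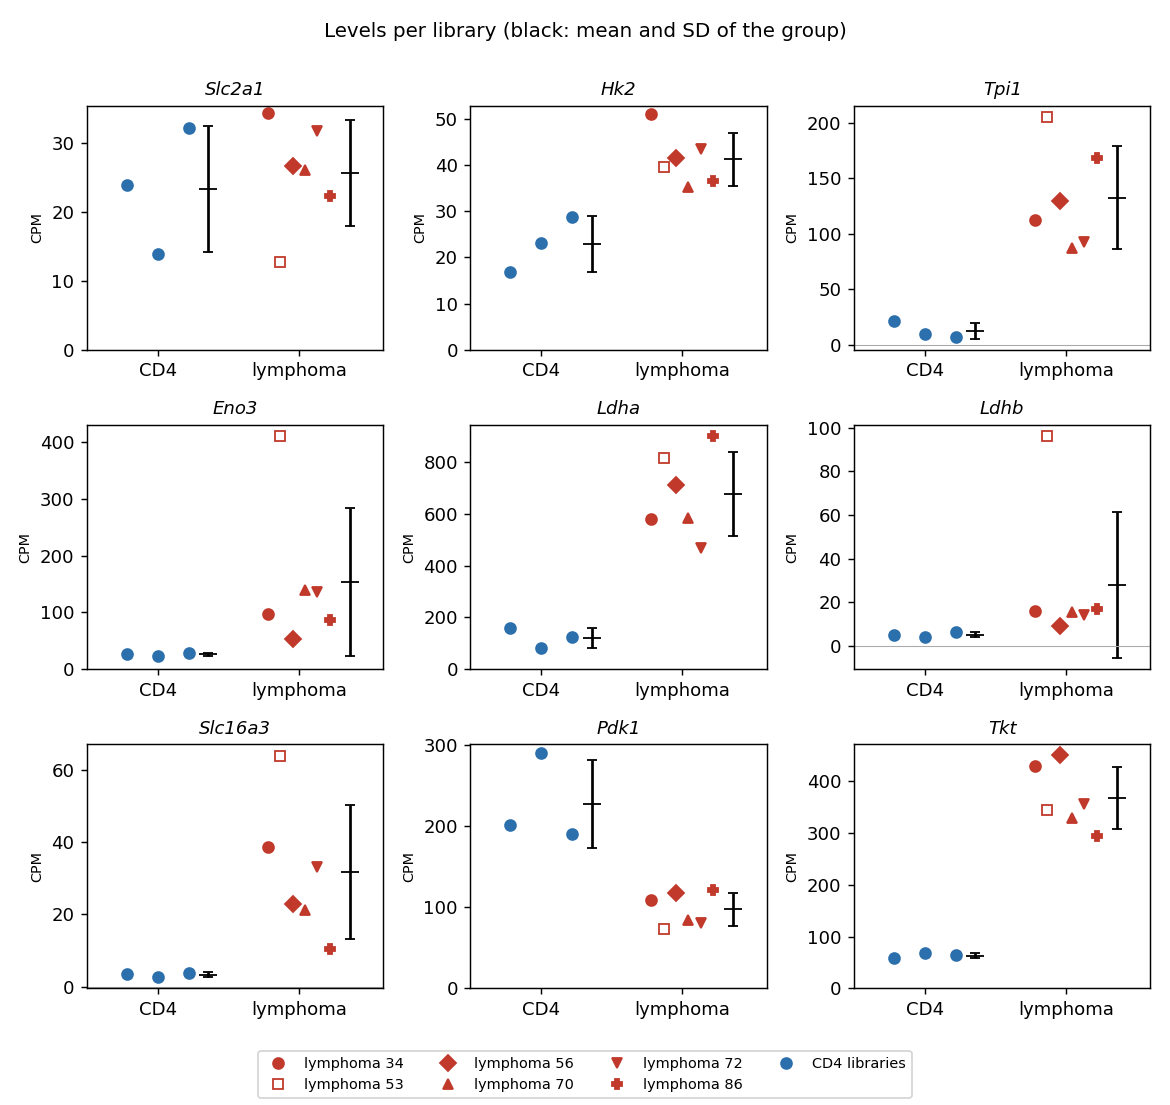
Level in CPM of 9 of the genes in each CD4 library (blue) and each lymphoma (red, 1 symbol per library, open square for lymphoma 53), with the mean and SD of each group in black. Slc2a1 overlaps between the groups, Pdk1 is lower in every lymphoma, and the other 7 genes are higher in every lymphoma; lymphoma 53 is far above the others for Eno3 (411 CPM) and Ldhb (96.1 CPM).

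Both lactate dehydrogenase genes rose. Ldha (chromosome 7, 46841475 to 46855627, plus strand), whose subunit is known for turning pyruvate into lactate, had 158, 81.6 and 124 CPM in CD4 and 469 to 903 CPM in lymphoma (median 647). The lowest lymphoma was well above the highest CD4 library, and the mean was 5.58-fold higher (log2 2.48, SE 0.274, edgeR adjusted p 2.41e-05). Ldhb, the heart form, had 5.15, 3.96 and 6.51 CPM in CD4 and 9.24 to 96.1 CPM in lymphoma (median 15.9). Lymphoma 53 alone accounted for the upper range, since the other 5 lymphomas ended at 17.0 CPM. The log2 fold change of Ldhb was 2.42 (SE 0.798, edgeR adjusted p 0.0298) with all libraries and 1.46 (SE 0.301, edgeR adjusted p 0.00155) without lymphoma 53. Its call was lost in 6 alternatives, which include limma voom and leaving out CD4 1, CD4 2 or CD4 3 (edgeR adjusted p 0.0830, 0.1005 and 0.0707), and DESeq2 gave it no adjusted p.

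Because Ldha, Slc16a1 and other members rose together, their promoters were read for the hexamer CACGTG, the E-box that MYC family proteins are known to bind. RefSeq promoters (GRCm38.p6, from 250 bases before to 50 bases after a start) matched 36 of the 37 genes by symbol (all but Slc2a3), with 52 windows, since some genes have several starts. CACGTG reads the same on both strands. It was present in 5 of the 52 windows (9.62%) and in 7.15% of the 32851 windows of the whole table. Counted by gene, 5 of 36 members (13.9%) had it in at least 1 window, beside 11.4% of the 9853 tested genes that matched, so the members' share was close to that of tested genes. The shorter ACGTG, searched on both strands and contained in every CACGTG, is the core of the site known for HIF1. It was in 20 of the 52 windows (38.5%) and in 19.6% of the windows of the whole table, tested or not. By gene, it was in 17 of 36 members (47.2%) and in 29.1% of the matched tested genes. A share by gene grows with the windows per gene. There were 52 windows for 36 members and 32851 for the 27025 genes of the whole table. No test was made of these shares. The 5 windows with CACGTG are printed 5′ to 3′ on the strand of the gene, with that hexamer in capitals; the first base of the hexamer lies 145 and 48 bases before the start in Ldha, 200 in Slc16a1, 136 in Pfkm, 53 in Pfkfb3 and 126 in Pdk2.
Ldha (chr7:46845554-46845853, plus strand): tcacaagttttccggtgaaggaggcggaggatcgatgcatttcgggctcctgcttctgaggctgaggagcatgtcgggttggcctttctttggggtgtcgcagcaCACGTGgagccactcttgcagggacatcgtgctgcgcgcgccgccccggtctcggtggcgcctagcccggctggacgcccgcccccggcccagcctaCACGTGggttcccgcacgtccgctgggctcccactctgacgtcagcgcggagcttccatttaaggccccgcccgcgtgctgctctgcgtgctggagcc
Slc16a1 (chr3:104638414-104638713, plus strand): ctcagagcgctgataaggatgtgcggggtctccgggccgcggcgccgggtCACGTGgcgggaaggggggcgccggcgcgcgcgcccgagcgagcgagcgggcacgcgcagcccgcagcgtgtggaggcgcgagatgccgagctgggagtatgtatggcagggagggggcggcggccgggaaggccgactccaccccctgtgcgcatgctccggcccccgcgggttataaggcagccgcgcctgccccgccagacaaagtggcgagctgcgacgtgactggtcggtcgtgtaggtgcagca
Pfkm (chr15:98092339-98092638, plus strand): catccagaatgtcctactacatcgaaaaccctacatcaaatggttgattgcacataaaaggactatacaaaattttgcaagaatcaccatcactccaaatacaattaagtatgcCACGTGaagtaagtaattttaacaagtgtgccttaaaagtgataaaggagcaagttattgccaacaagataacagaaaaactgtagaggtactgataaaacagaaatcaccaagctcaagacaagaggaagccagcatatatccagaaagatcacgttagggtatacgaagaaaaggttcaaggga
Pfkfb3 (chr2:11502041-11502340, minus strand): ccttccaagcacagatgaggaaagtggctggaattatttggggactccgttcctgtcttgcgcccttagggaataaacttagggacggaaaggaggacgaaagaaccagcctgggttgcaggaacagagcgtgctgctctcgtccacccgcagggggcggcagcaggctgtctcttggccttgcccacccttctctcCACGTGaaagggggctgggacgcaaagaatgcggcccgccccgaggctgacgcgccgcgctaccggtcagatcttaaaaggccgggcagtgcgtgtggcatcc
Pdk2 (chr11:95041322-95041621, minus strand): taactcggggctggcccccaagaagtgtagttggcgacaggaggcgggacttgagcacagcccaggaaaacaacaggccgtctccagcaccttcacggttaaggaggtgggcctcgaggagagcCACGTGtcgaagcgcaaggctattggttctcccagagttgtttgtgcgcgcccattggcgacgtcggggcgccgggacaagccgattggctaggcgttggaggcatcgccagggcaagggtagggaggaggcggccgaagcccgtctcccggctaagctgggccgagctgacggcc
Of these 5 genes, 4 rose and Pdk2 did not pass the test, where 26 of all 37 members (70.3%) and 24.7% of all genes tested rose. Whether the hexamer bears on the change of a gene was not tested. Ldha is the member whose window holds the hexamer more than once. A match is a run of letters in a window and says nothing of binding in these cells.

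Of the 8 genes of pyruvate entry and its dehydrogenase, 3 were higher, 1 was lower and 4 did not pass the threshold, with a median log2 fold change of 0.60. That is 37.5% higher and 12.5% lower, against 24.7% and 21.9% of all genes tested. Pdk1, a kinase that switches pyruvate dehydrogenase off, was the only member called at least 2-fold lower. It had 201, 289.7 and 190.5 CPM in CD4 and 72.9 to 121 CPM in lymphoma (median 96.2), and fell by 1.22 on the log2 scale (SE 0.205, edgeR adjusted p 0.000494). Every lymphoma was below every CD4 library, and the call was kept in all 18 alternatives. Pdk2, a related kinase, was low, with 1.72, 0.960 and 3.85 CPM in CD4 and 2.37 to 4.26 CPM in lymphoma (log2 fold change 0.64, edgeR adjusted p 0.352). Pdk3, a further kinase of the family and one of the other pathway genes, rose by 1.59 (SE 0.259, edgeR adjusted p 0.000404), from 9.54, 15.1 and 10.9 CPM to between 26.8 and 49.4 CPM; it was named after its values were seen.

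Of the complex itself, Dlat, Dld and Pdhb rose, while Pdha1 did not pass; Pdhb and Pdha1 encode the beta and alpha chains of the decarboxylating component, and Dlat the acetyl-transferring core. Dlat had 27.4, 23.6 and 20.1 CPM in CD4 and 52.996 to 70.6 CPM in lymphoma (median 62.5), a rise of 1.38 (SE 0.174, edgeR adjusted p 6.33e-05). Dld, a subunit shared with other dehydrogenases, rose by 1.47 (SE 0.274), from 22.2, 14.0 and 29.6 CPM to between 43.2 and 77.9 CPM. Pdhb rose by 0.996 (SE 0.168), just under 2-fold, from 57.5, 41.6 and 55.6 CPM to between 93.9 and 122 CPM. Pdha1 had 48.5, 46.9 and 72.02 CPM in CD4 and 36.6 to 203 CPM in lymphoma, where the second highest library had 80.7 CPM. Its log2 fold change was 0.56 (SE 0.491, edgeR adjusted p 0.386) and 0.05 (SE 0.249) without lymphoma 53. The mitochondrial pyruvate carrier genes did not pass: Mpc1 changed by 0.40 (SE 0.507) at 1.32 to 3.39 CPM over all libraries, and Mpc2 by 0.41 (SE 0.201, edgeR adjusted p 0.113) at 43.8 to 84.9 CPM. Exons of 4930506C21Rik overlap the Mpc1 end on the other strand, and those of Map3k15 the Pdha1 end. Reads of these overlaps cannot be assigned.

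In the pentose phosphate pathway 6 of 7 genes rose (85.7%, against 24.7% of all genes tested) and Taldo1 did not pass. Tkt (chromosome 14, 30548359 to 30574720, plus strand), the transketolase that links the pathway back to glycolysis, had the smallest p of the 37 genes. It stood at 58.4, 67.9 and 63.9 CPM in CD4 and at 294 to 451 CPM in lymphoma (median 350), 5.80-fold higher (log2 2.54, SE 0.188, edgeR adjusted p 1.34e-06). The groups were far apart, and lymphoma 53, at 344 CPM, was within the range of the other lymphomas.

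The oxidative arm makes NADPH. Its first enzyme gene, G6pdx, rose by 0.75 (SE 0.280, edgeR adjusted p 0.0452), from 15.4, 11.3 and 15.4 CPM to between 15.4 and 30.0 CPM (median 25.7). The call is marginal: the groups overlapped, and it was lost in 12 of 18 alternatives, which include leaving out CD4 1, 2 or 3 or lymphoma 34, 56 or 86. Pgls had 82.2, 98.3 and 73.0 CPM in CD4 and 214 to 360 CPM in lymphoma (median 244), a rise of 1.599 (SE 0.203, edgeR adjusted p 6.43e-05). Pgd, the second NADPH-producing enzyme, rose by 1.49 (SE 0.250, edgeR adjusted p 0.000500), from 53.5, 31.0 and 45.4 CPM to between 94.7 and 176 CPM.

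The non-oxidative arm rearranges sugar phosphates. Rpia, which makes ribose phosphate, had 36.3, 33.8 and 33.9 CPM in CD4 and 73.2 to 98.8 CPM in lymphoma (median 79.2), a rise of 1.25 (SE 0.164, edgeR adjusted p 8.47e-05). Rpe, the epimerase, rose by 1.58 (SE 0.265), from 6.77, 5.76 and 6.05 CPM to between 13.0 and 22.6 CPM; Kansl1l, whose exons overlap its end on the other strand, fell by 0.84 (SE 0.269). Taldo1, the transaldolase, had 143, 111 and 143 CPM in CD4 and 125 to 264 CPM in lymphoma (median 154), and its change was 0.33 on the log2 scale (SE 0.231, edgeR adjusted p 0.273).

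**Figure D3:**
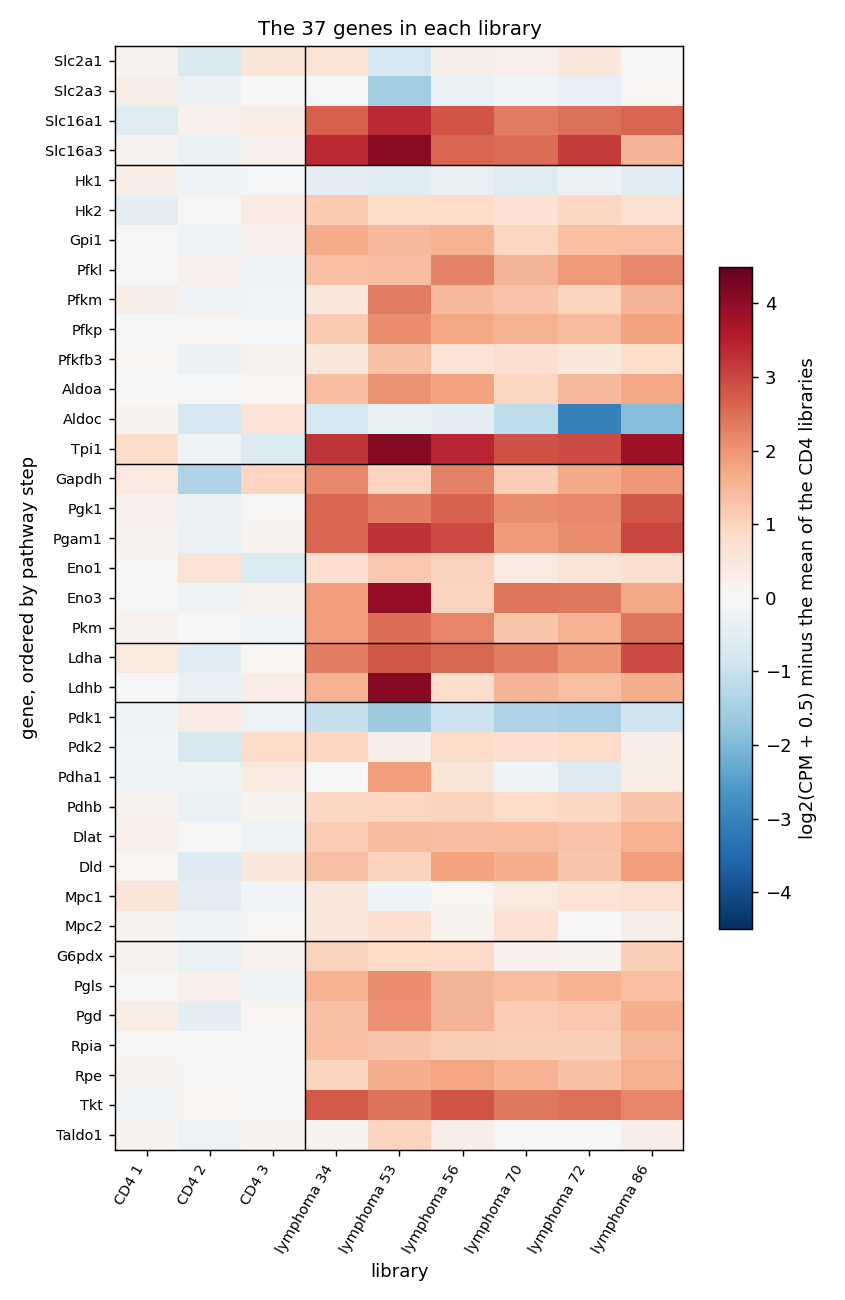
Log2(CPM + 0.5) of the 37 genes in each of the 9 libraries, minus the mean of the 3 CD4 libraries, with horizontal lines between pathway steps and a vertical line between the groups. Most rows are red in all 6 lymphomas, Hk1, Aldoc and Pdk1 are blue in all 6, and rows such as those of Slc2a1, Slc2a3 and Mpc1 change sign between lymphomas.

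The balance between related genes was examined as the log2 ratio of their counts in each library, which does not depend on scaling. Group means of 9 such ratios were compared by an exact two-sided permutation test over the 84 assignments, whose smallest p is 0.0119, with Benjamini-Hochberg adjustment over the 9 pairs. By this test 0 of the 9 pairs passed an adjusted p of 0.05, and 2 had an unadjusted exact p under 0.05 (Hk2/Hk1 and Pdk1/Pdk2, both at the smallest p). These 2 had an adjusted exact p of 0.0536, as low as 2 pairs alone could reach. The adjusted test could not pass them without further pairs at low p, so no conclusion is drawn from the 0. With a prior count of 2 in place of 0.5, Hk2/Hk1, Aldoc/Aldoa and Pdk1/Pdk2 passed at an adjusted exact p of 0.0357.

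Hk2 gave 17.2, 27.7 and 31.0% of the reads of Hk2 and Hk1 together in CD4 and 42.9 to 50.9% in lymphoma (median 43.3%). The log2 ratio was -1.6003 ± 0.587 (SD, n = 3) in CD4 and -0.30 ± 0.182 (SD, n = 6) in lymphoma, a difference of 1.30 with no overlap (exact permutation p = 0.0119, adjusted 0.0536). For Pdk1/Pdk2 the ratio was 6.86 ± 1.27 (SD, n = 3) in CD4 and 4.83 ± 0.436 (SD, n = 6) in lymphoma, a difference of -2.03 without overlap, although CD4 3 at 5.61 and lymphoma 86 at 5.60 nearly met (exact permutation p = 0.0119, adjusted 0.0536). That ratio rests on at least 8 counts of Pdk2 in any library, and the difference was -1.39 without CD4 2 and -2.66 without CD4 3.

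Aldoc made up 1.43 to 3.86% of aldolase reads in CD4 and 0 to 0.534% in lymphoma. The groups did not overlap, but the difference of -3.65 carried the count of 0 in lymphoma 72 and had an exact permutation p of 0.0595 (adjusted 0.134). Without lymphoma 72 it was -2.72 (adjusted exact permutation p 0.0536). Eno3 over Eno1 differed by 1.44 and overlapped (exact permutation p = 0.0595, adjusted 0.134), ranging from 30.1 to 75.0% Eno3 among lymphomas, with the limit on Eno1 counts given above. Ldhb stood at 3.15 to 4.98% of lactate dehydrogenase reads in CD4, at 10.5% in lymphoma 53 and at 1.28% in the lowest lymphoma, with a mean difference of -0.58 (exact permutation p = 0.405). Pfkp held 78.6% ± 1.45 (SD, n = 3) of Pfk reads in CD4 and 77.3% ± 3.42 (SD, n = 6) in lymphoma, and the Pfkl/Pfkp and Pfkm/Pfkp ratios, which overlapped between the groups, differed by 0.15 and -0.21 (exact permutation p 0.643 and 0.333). The Slc2a1/Slc2a3 ratio differed by 0.55 and Slc16a1/Slc16a3 by -0.26, both with overlap (exact permutation p 0.0952 and 0.571).

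**Figure D4:**
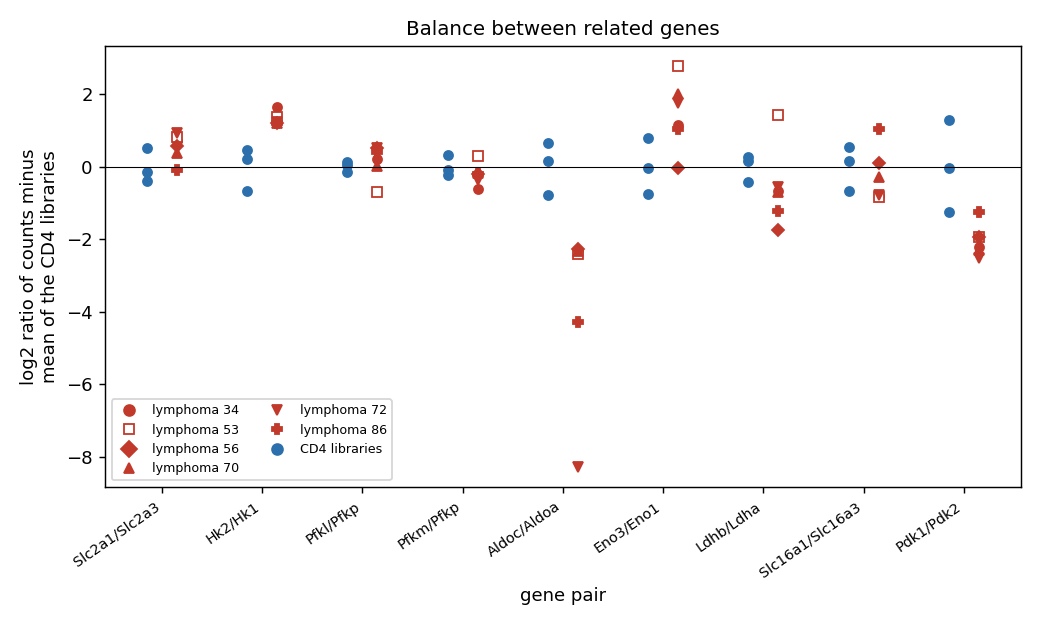
Log2 ratio of counts of 9 pairs of related genes in each library, minus the mean of the CD4 libraries, for CD4 (blue) and lymphoma (red, 1 symbol per library, open square for lymphoma 53). The groups lie apart for Hk2/Hk1, Aldoc/Aldoa and Pdk1/Pdk2 and overlap for the other 6 pairs; the lowest Aldoc/Aldoa point is lymphoma 72, with 0 counts of Aldoc.

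The lymphomas took the extremes of the members unevenly. Lymphoma 53 was the highest of the 6 for 18 members and the lowest for 8, against 30.5% and 33.3% of all genes tested. Lymphoma 86 was the highest for 10 members (19.3% of all genes tested), and lymphoma 70 was the lowest for 12 and the highest for 0 (11.9% and 13.6% of all genes tested). The median SD over the 6 lymphomas was 0.35 log2 units for the members and 0.47 for all genes tested, and without lymphoma 53 it was 0.27 and 0.34. The steadiest members in lymphoma were Hk1, Pdhb and Dlat, whose highest lymphoma exceeded the lowest by 1.21, 1.30 and 1.33 times. Ldhb (10.4 times), Eno3 (7.86), Slc16a3 (6.11) and Pdha1 (5.56) varied most among members detected in every lymphoma. Lymphoma 53 was the highest library for each of these last 4 genes. Its summed T cell markers were also the highest of the 9 libraries, at 8486 CPM, of which Trbc2 gave 3626 CPM and Thy1 1535 CPM. Single markers differed: lymphoma 53 was the highest library for Trbc2, Thy1, Trac and Cd3e. It was the lowest for Trbc1 (5.11 CPM), Cd5 (72.5 CPM) and Cd28 (204 CPM). The myeloid markers of lymphoma 53 summed to 315 CPM. The part of cell makeup in its values was not tested.

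Among other genes of glucose and pyruvate metabolism, most that passed the test were also higher in lymphoma. Of 42 listed, 41 were in the table and 26 tested, of which 11 rose (42.3%) and 1 fell (3.85%), with a median log2 fold change of 0.96. Over all genes tested the shares were 24.7% and 21.9%. The largest rises were those of Slc2a8, an intracellular sugar transporter (1.77, SE 0.557), Pgm1, a phosphoglucomutase family gene (1.73, SE 0.424), and Pdp1, a phosphatase that reactivates pyruvate dehydrogenase (1.61, SE 0.309), all past the edgeR threshold. Pdp1 had 3.24, 4.44 and 6.24 CPM in CD4 and 11.2 to 16.8 CPM in lymphoma. Slc2a8 had 0.382, 3.36 and 2.11 CPM in CD4 and 6.04 to 8.27 CPM in lymphoma, and its change was 2.41 without CD4 2. The call of Slc2a8 was lost without CD4 3 (edgeR adjusted p 0.0556) and at an adjusted p of 0.01. Pfkfb4, a relative of Pfkfb3, fell by 1.46 (SE 0.558, edgeR adjusted p 0.0487), a call lost in 10 of 18 alternatives, among them leaving out any 1 library other than lymphoma 34 or 53.

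The citrate cycle, which takes up the acetyl-CoA made from pyruvate, was higher at 14 of 16 genes (87.5%) and lower at 0, with a median of 1.18. Over all genes tested 24.7% were higher and 21.9% lower. Idh3a, a subunit of isocitrate dehydrogenase, rose by 1.80 (SE 0.177), from 42.8, 33.6 and 39.9 CPM to between 112 and 159 CPM. Fumarase Fh1 rose by 1.68 (SE 0.204) and Sdhb, a succinate dehydrogenase subunit, by 1.57 (SE 0.225). Ogdh and Sdha did not pass the edgeR threshold.

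Of 18 tested regulators of glucose use, 3 were higher (16.7%) and 6 lower (33.3%), with a median of -0.38; over all genes tested the shares were 24.7% and 21.9%. Without CD4 3 the number lower was 3. Txnip, which restrains glucose uptake, had 508, 408 and 341 CPM in CD4 and 52.6 to 99.8 CPM in lymphoma (median 80.0), and fell by 2.44 (SE 0.209, edgeR adjusted p 3.76e-06). Arnt, whose product pairs with that of Hif1a to form HIF1, fell by 1.14 (SE 0.169), from 54.2, 56.3 and 53.5 CPM to between 21.3 and 31.3 CPM. Hif1a itself fell by 0.68 (SE 0.240, edgeR adjusted p 0.0355), from 92.5, 76.2 and 111 CPM to between 33.0 and 75.8 CPM, and lost its call in 6 alternatives, which include leaving out CD4 1, CD4 3 or lymphoma 34, 56 or 86. The largest rises were Egln3 (3.84, SE 0.616), Foxk2 (1.28, SE 0.228) and Egln1 (0.99, SE 0.167); the Egln genes encode the oxygen-sensing hydroxylases that mark HIF for destruction. Egln3 had 8.78, 2.9998 and 0.734 CPM in CD4 and 38.6 to 80.4 CPM in lymphoma, and its change was 5.06 without CD4 1.

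Hypoxia genes outside the 37, a list of known HIF1 targets, held 16 tested genes, of which 6 rose (37.5%) and 3 fell (18.8%), with a median of 0.48; over all genes tested the shares were 24.7% and 21.9%. The number higher was 3 without CD4 2, and the number lower was 1 without CD4 1. Ak4, a mitochondrial adenylate kinase, had 1.24, 0 and 0 CPM in CD4 and 9.62 to 28.1 CPM in lymphoma, and its fitted rise was 5.41 (SE 0.940, edgeR adjusted p 0.000738). That size rests on CD4 1, the only CD4 library with counts of Ak4: the fitted value was 10.93 without it, which is no bound, and 4.82 without CD4 3. Vegfa, the vascular growth factor, rose by 2.97 (SE 0.572) and Fam162a by 1.92 (SE 0.215); Vegfa rose by 3.80 without CD4 3. P4ha2 fell by 2.30 (SE 0.774, edgeR adjusted p 0.0288), but by 1.41 with an edgeR adjusted p of 0.251 without CD4 3. Its call was lost in 8 of 17 alternatives, which include leaving out CD4 1 or lymphoma 56, 70, 72 or 86 (edgeR adjusted p 0.0504, 0.0530, 0.0578, 0.0514 and 0.0509). Ndrg1 fell by 1.66 (SE 0.497) and the collagen hydroxylase gene P4ha1 by 0.83 (SE 0.221). The call of Ndrg1 was lost without CD4 1, without CD4 2 (edgeR adjusted p 0.0529 and 0.0579) and at an adjusted p of 0.01.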

How the data were processed

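RNA from 6 lymphoma and 3 CD4 libraries was measured by sequencing of transcript 3′ ends, and the deposited table holds raw read counts per gene, per the file headers. The submitters' processing notes name FastQC, HISAT2, SAMtools and HTSeq and the builds mm10 and GRCm38; versions, annotation and strand setting are not given in the sources used here. The 5 closing summary rows, which hold reads in no gene, entered neither library totals nor tests. Reads in genes were 38.7 to 49.1% of all reads in lymphoma and 27.8 to 35.0% in CD4, and reads aligned to several places 16.1 to 18.6% and 11.6 to 14.0%. The number of columns matching no sample was 0. No pair of libraries of a group agreed within sampling noise (smallest chi-square per degree of freedom 20.7 over 18 pairs). The smallest value was that of lymphomas 70 and 72. Their Pearson correlation of log2 CPM was 0.980, and that of the other lymphoma pairs 0.884 to 0.957. Whether lymphomas 70 and 72 arose independently was not tested.

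The test was that of edgeR 4.0.16 under R 4.3.3 (filterByExpr with a minimum count of 10, TMM, robust glmQLFit, glmQLFTest), adjusted by Benjamini-Hochberg over all 15401 genes at 0.05; 2-fold calls also needed an absolute log2 fold change of 1. The standard error is the absolute log2 fold change over the square root of F. CPM is per 1000000 of the TMM-scaled library. Ratios of gene pairs used a prior count of 0.5 and exact permutation (scipy 1.17.1). Genes with 2 rows used the row with counts. A count of 3 was taken as the upper limit of a 0, by counting error alone, since PCR copies cannot be told from separate molecules. DESeq2 1.42.0 and limma 3.58.1 served as alternatives. Scripts were tested on simulated data. Coordinates are from GENCODE M21 (GRCm38), promoters from RefSeq.

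The members, the other lists and the pairs were chosen with earlier results of these data known. All members are named; of each other list the 3 largest rises and 3 largest falls past the threshold are named.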

Additional observations from a re-analysis of the deposited data

Results flagged for a closer look

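A lymphoma was taken as far from the rest where the distance to the closest other lymphoma, as a share of the range of all 6, passed the 95% critical value of Dixon's test. For independent, normally distributed values chance gives about 1 in 20. That is 2.30 of the 46 results examined (37 levels in CPM and 9 log2 ratios). The levels were not on a log scale and the ratios reuse the same genes, so 2.30 is only a rough guide. In all, 8 were found, 6 of them in lymphoma 53. The rate over all genes tested was not computed.

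Lymphoma 53 stood above the other 5 for Ldhb (96.1 CPM against 9.24 to 17.0), Eno3 (411 against 52.2 to 139), Pdha1 (203 against 36.6 to 80.7), Taldo1 (264 against 125 to 162), Pgls (360 against 214 to 251) and Pfkfb3 (90.1 against 49.4 to 61.4). Without lymphoma 53 the changes of Pgls and Pfkfb3 were 1.47 and 0.61 on the log2 scale, both past the edgeR threshold, and that of Taldo1 was 0.14 (edgeR adjusted p 0.438). The log2 ratio of Hk2 to Hk1 was 0.052 in lymphoma 34 and -0.41 to -0.24 in the others. For Aldoc over Aldoa it was -13.53 in lymphoma 72, which had 0 counts of Aldoc, and -9.56 to -7.52 in the others.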

How the results depend on the processing

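The 28 member calls were recomputed under 18 alternatives, and 23 to 28 were kept; DESeq2 added Gapdh. G6pdx was lost in 12, Hk1 in 9, Ldhb in 6 of the 17 that gave it an adjusted p (DESeq2 gave none), Eno1 in 5 and Pfkfb3 in 2. The other 23 called members kept their direction and call in each alternative. Members called lower fell from 2 to 1 (Hk1 lost) with no filter, at an adjusted p of 0.01 and with lymphomas 34, 70 and 72 averaged, and ranged from 1 to 2 with 1 library left out. Other pathway genes called lower numbered 2 with upper quartile scaling, with at least 10 counts in every library, with DESeq2 and with limma voom, 0 with library size alone and at an adjusted p of 0.01, and 0 to 2 with 1 library left out. At an adjusted p of 0.01, 7 other pathway genes and 3 hypoxia genes were higher, and 3 regulators and 1 hypoxia gene lower. With 1 library left out, regulators called lower ranged from 3 to 8, hypoxia genes called higher from 3 to 6 and called lower from 1 to 3. Of the ratios, 3 of 9 passed with a prior count of 2.

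With 1 library left out, the change of Slc2a1 ranged from -0.12 (without CD4 2) to 0.45 (without CD4 3), and that of the Slc16a1/Slc16a3 ratio from -0.60 (without CD4 1) to 0.0021 (without CD4 2); with group medians the latter was -0.67. Without CD4 3 the changes of Gapdh and Pdk2, which did not pass, were 2.62 and 1.34. With no filter the median over all genes was 0.20 and that of the members 1.498. The cause of these shifts was not tested. No paired analysis was possible because the groups share no replicate numbers. With 3 CD4 libraries the exact permutation test cannot give a p under 0.0119.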
